A study of Mus musculus with 19 samples.

Results

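Lyz1 and Lyz2, the 2 mouse lysozyme genes, are described here in every library of a study of sorted cells from the inflamed mouse central nervous system. They are 2 of the 6843 gene symbols, matched without regard to letter case, that appear in at least 1 of its 3 expression tables, and both appear in all 3. They were selected on their signal in microglia, which was lower in mice given the virus against Xbp1, so their values in that comparison are a description and carry no test. What was not used to pick them are their values in the other cell types, which share no library with the microglia table but may share mice with it, and their sequences.

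The mice were wild-type C57Bl/6 females of postnatal day 85 with experimental autoimmune encephalomyelitis (EAE), an autoimmune disease model of multiple sclerosis, induced in all groups with MOG35-55, a peptide of myelin, at 25 µg per mouse in CFA (complete Freund's adjuvant). All groups had also received a lentivirus into the brain that carries GFP and a short hairpin RNA under the Gfap promoter to target astrocytes. The hairpin was either aimed at Xbp1, a transcription factor gene of the unfolded protein response (pLenti-Gfap-GFP-shXbp1, here shXbp1), or was a scrambled one with no target (shScrmbl). Flow-sorted astrocytes gave 4 shXbp1 and 4 shScrmbl libraries, microglia 3 and 4, and monocytes 2 and 2. The labels give 1 nervous system per isolation, and whether libraries of different cell types came from the same mouse is not given. The antibodies, and whether sorted astrocytes were selected for GFP, are not given in the sources used here. Libraries were made by 3′ digital gene expression, in which each count comes from a transcript's 3′ end, so a gene's count does not grow with its length and levels of both genes can be set side by side.

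Lysozyme cuts the peptidoglycan of bacterial cell walls and is stored in granules and lysosomes or secreted. Lyz2, also called lysozyme M, is a standard marker of monocytes, macrophages and neutrophils, and Lyz1, also called lysozyme P, is best known from Paneth cells of the mouse small intestine. Resting microglia are known for low lysozyme, while monocytes that enter the diseased nervous system carry it at high levels.

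The genes lie side by side on the minus strand of chromosome 10 in GRCm38 (also called mm10), with Lyz1 at chr10:117287797-117292868 and Lyz2 at chr10:117277331-117282321, 5475 bases apart (GENCODE M21). Each has 4 exons and codes for a precursor of 148 codons. The coding sequences are identical at 422 of 444 positions, the encoded proteins at 136 of 148 (91.9%), and the aligned 3′ untranslated regions at 95.6% of columns. The last 60 coding bases of each are shown because they lie near the end of the transcript and display how few letters tell the copies apart. Capitals mark the 2 bases in each that have no identical partner in the other (minus strand, chr10:117288586-117288645 for Lyz1 and chr10:117278124-117278183 for Lyz2, GENCODE M21 transcripts).
Lyz1: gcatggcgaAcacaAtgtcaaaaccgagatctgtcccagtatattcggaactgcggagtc
Lyz2: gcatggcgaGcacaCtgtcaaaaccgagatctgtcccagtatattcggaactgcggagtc

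This likeness limits what a count of a single copy means. Of all 25-base stretches in the last 500 bases of the Lyz1 transcript, 45.2% also occur in the Lyz2 transcript, and of all 50-base stretches 17.7% do. The read length and the handling of reads that map to both copies are not given in the sources used here, so the division of counts between Lyz1 and Lyz2 is uncertain, and the sum of both is the firmer measure.

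Upstream of the RefSeq starts the copies differ more. Over the 250 bases before the RefSeq start 79.4% of aligned columns are identical, and the 50 bases next to the start are identical throughout. For Lyz2, but not Lyz1, the RefSeq start lies inside the gene as GENCODE places it. Nearly all of those 50 bases of Lyz2 are thus within its GENCODE bounds. The 200 bases before those 50 are printed because the genes moved together across libraries; capitals again mark the 50 bases in each without an identical aligned partner (RefSeq promoter windows, GRCm38.p6, minus strand, chr10:117292919-117293118 for Lyz1 and chr10:117282323-117282522 for Lyz2).
Lyz1: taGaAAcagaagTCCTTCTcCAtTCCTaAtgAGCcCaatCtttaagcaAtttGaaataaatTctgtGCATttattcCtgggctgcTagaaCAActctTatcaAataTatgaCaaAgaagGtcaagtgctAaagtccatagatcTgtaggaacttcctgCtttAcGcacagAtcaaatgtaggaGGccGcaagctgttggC
Lyz2: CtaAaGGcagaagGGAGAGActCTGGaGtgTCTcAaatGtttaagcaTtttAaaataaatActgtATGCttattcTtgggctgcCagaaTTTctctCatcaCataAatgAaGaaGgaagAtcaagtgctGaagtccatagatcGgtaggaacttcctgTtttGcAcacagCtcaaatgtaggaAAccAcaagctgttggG

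Each window of 300 bases, 250 before to 50 after the start, was searched on both strands for 4 short motifs. TGACGTGG, an XBP1-type element, occurs in 0.676% of 32851 such windows of the genome and in neither lysozyme window. TTGCNNAA, a C/EBP-type element, occurs in 10.8% of windows and once in that of Lyz1, at position -209, while that of Lyz2 has none. GAGGAA, a core bound by the myeloid factor PU.1, is in 28.3% of windows, and TATAAA in 13.6%, and neither occurs in either lysozyme window. For PU.1 that absence is of the exact letters GAGGAA, and other forms of its core are not reported. The last 4 letters of GAGGAA do occur on both strands of both printed promoter stretches, within a run without capitals. How many windows hold those 4 letters is not given here. These are matches of letters and no evidence of binding.

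Depth was low and uneven: libraries held 32842 to 302003 counts in astrocytes, 10039 to 122002 in microglia and 15654 to 112676 in monocytes, and the shXbp1 libraries of microglia and monocytes were on the whole shallower than the shScrmbl ones. The deposited signal is a whole number of counts times a value that differs between libraries, from 4.22 to 76.0 signal per count. The tables were normalized separately, so cell types are compared by description alone. Xbp1 itself averaged 49.5 ± 22.3 signal in shXbp1 astrocytes and 49.8 ± 30.3 signal in shScrmbl astrocytes (SD, n = 4 each). These means rest on 2, 11, 3 and 12 counts with shXbp1 and on 1, 17, 3 and 1 with shScrmbl. That is too few to measure a difference, so the counted transcript gave no check of the hairpin. Defining markers were checked too. Gfap was not among the genes of the astrocyte table, where 17 of 20 astrocyte markers were measured and choroid plexus markers, Ttr among them, made up 16.9% to 30.9% of counts. All 22 homeostatic microglia markers were measured in the microglia table and 29 of 30 monocyte and macrophage markers in the monocyte table, Ly6c1 being the one not there.

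Lysozyme was most abundant in monocytes, next in microglia and lowest in astrocyte libraries, with a 228-fold range over the 19 libraries. Together the genes made up 0.856% and 2.33% of counts in shXbp1 monocytes, against 3.48% and 3.60% in shScrmbl monocytes. In microglia they made up 0.388%, 1.77% and 0.627% with shXbp1, against 0.917%, 3.86%, 2.58% and 1.47% with shScrmbl. In astrocyte libraries they made up 0.0169%, 0.108%, 0.0293% and 0.0528% with shXbp1, against 0.0337%, 0.601%, 0.104% and 0.122% with shScrmbl. Exact 95% binomial intervals, which cover counting error only, ran from 0.00773% to 0.0321% for the lowest of these shares and from 3.73% to 3.98% for the highest. Within each virus the ranges of monocytes and microglia overlapped, so those neighbours were not separated, whereas the highest astrocyte share lay below the lowest microglia share (0.108% against 0.388% with shXbp1 and 0.601% against 0.917% with shScrmbl). Among all genes of a library, Lyz1 ranked between 3 and 28 in monocytes, between 4 and 61 in microglia and between 17 and 2144 in astrocytes, and Lyz2 between 5 and 39, 7 and 81, and 19 and 1712.

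**Figure D1:**
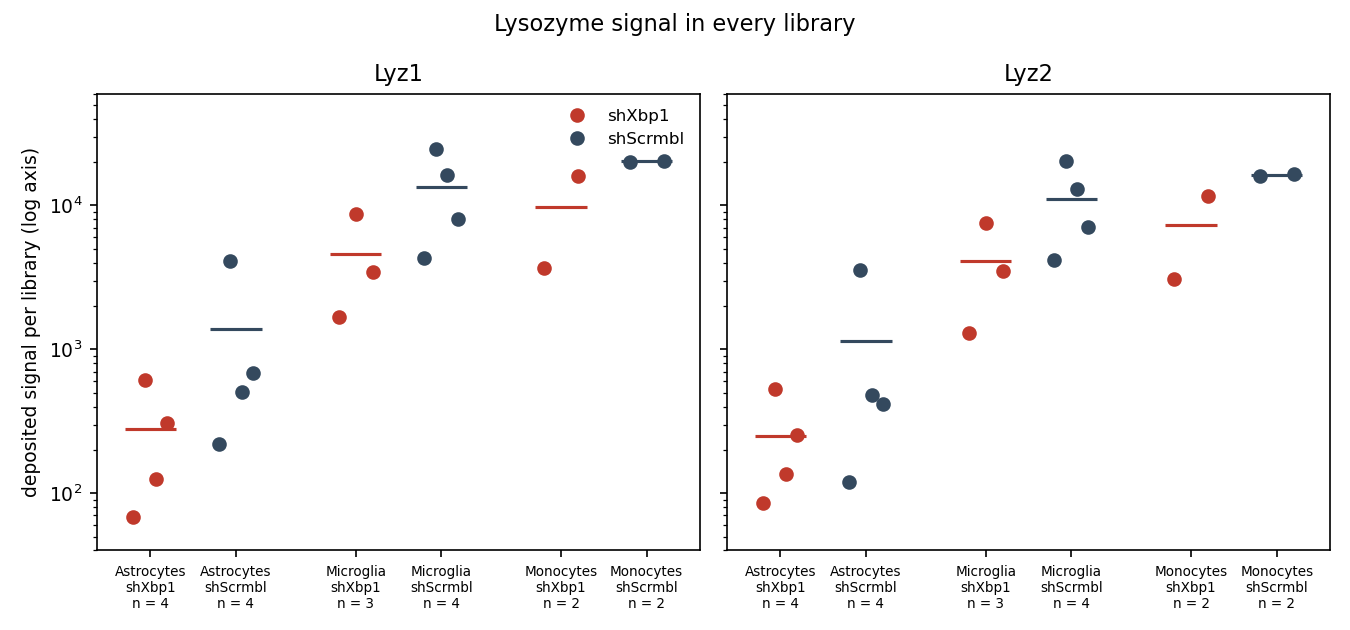
Deposited signal of Lyz1 (left) and Lyz2 (right) in each of the 19 libraries on a log axis, by cell type with shXbp1 left of shScrmbl. Points are libraries and bars are group means; the groups overlap in astrocytes and microglia and do not in monocytes, and scaling differs between cell types.

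In microglia, where the genes were picked, both were lower with shXbp1 by nearly the same amount. Lyz1 signal was 1672, 8693 and 3471 in shXbp1 microglia, against 4308, 24771, 16401 and 8040 in shScrmbl microglia. Lyz2 signal was 1292, 7589 and 3519 in shXbp1 microglia, against 4204, 20367, 12929 and 7120 in shScrmbl microglia. For both genes 2 of 3 shXbp1 libraries lay below every shScrmbl library, shXbp1 replicate 2 lay inside the shScrmbl range, and so the groups overlapped, whereas 4.92% of the genes of the table were lower in shXbp1 without overlap. Lyz1 averaged 4612 ± 3647 signal with shXbp1 and 13380 ± 9123 signal with shScrmbl, and Lyz2 4133 ± 3193 and 11155 ± 7132 (SD, n = 3 and 4). The difference in log2(signal + 1) was -1.56 for Lyz1 and -1.53 for Lyz2, beside a median of -0.39 over all genes of the table (-0.09 with edgeR's scaling of the counts), and 30.1% and 30.6% of genes had a lower value still. That place among genes depends on the scale: it was 5.41% and 6.29% by edgeR on the counts, 6.29% and 7.18% by DESeq2, and 0.652% and 0.750% with a pseudocount of 50. Leaving out shXbp1 replicate 1 gave -0.99 and -0.87, and leaving out shXbp1 replicate 2 gave -2.18 and -2.14, the ends of the range over single libraries.

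In bulk RNA of sorted cells, fewer cells of a type and less RNA per cell cannot be told apart, and levels of monocyte and macrophage markers moved with lysozyme in the microglia libraries. The 28 measured markers of that list summed to a signal of 3116, 5864 and 4740 in shXbp1 microglia, against 4879, 18272, 11370 and 7040 in shScrmbl microglia. The libraries with the highest and the lowest marker sum were also those with the highest and the lowest lysozyme. Between 2 and 10 of the 28 markers were at 0 in shXbp1 libraries and between 0 and 4 in shScrmbl libraries. Depth differed too, with 10039 to 46586 counts in the shXbp1 libraries and 17892 to 122002 in the shScrmbl ones. Lysozyme counts per marker count ran from 0.951 to 2.78 in shXbp1 and from 1.74 to 2.58 in shScrmbl microglia. Homeostatic microglia markers summed to 15275, 8831 and 16136 in shXbp1 microglia, against 11575, 10070, 9652 and 12320 in shScrmbl microglia, and were thus not lowest where lysozyme was lowest. The 8 measured neutrophil markers made up 0.0944% to 0.159% of counts with shXbp1 and 0.101% to 0.139% with shScrmbl. The marker lists were chosen with earlier results of these data known, and the part of these markers in the lower lysozyme was not tested.

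**Figure D2:**
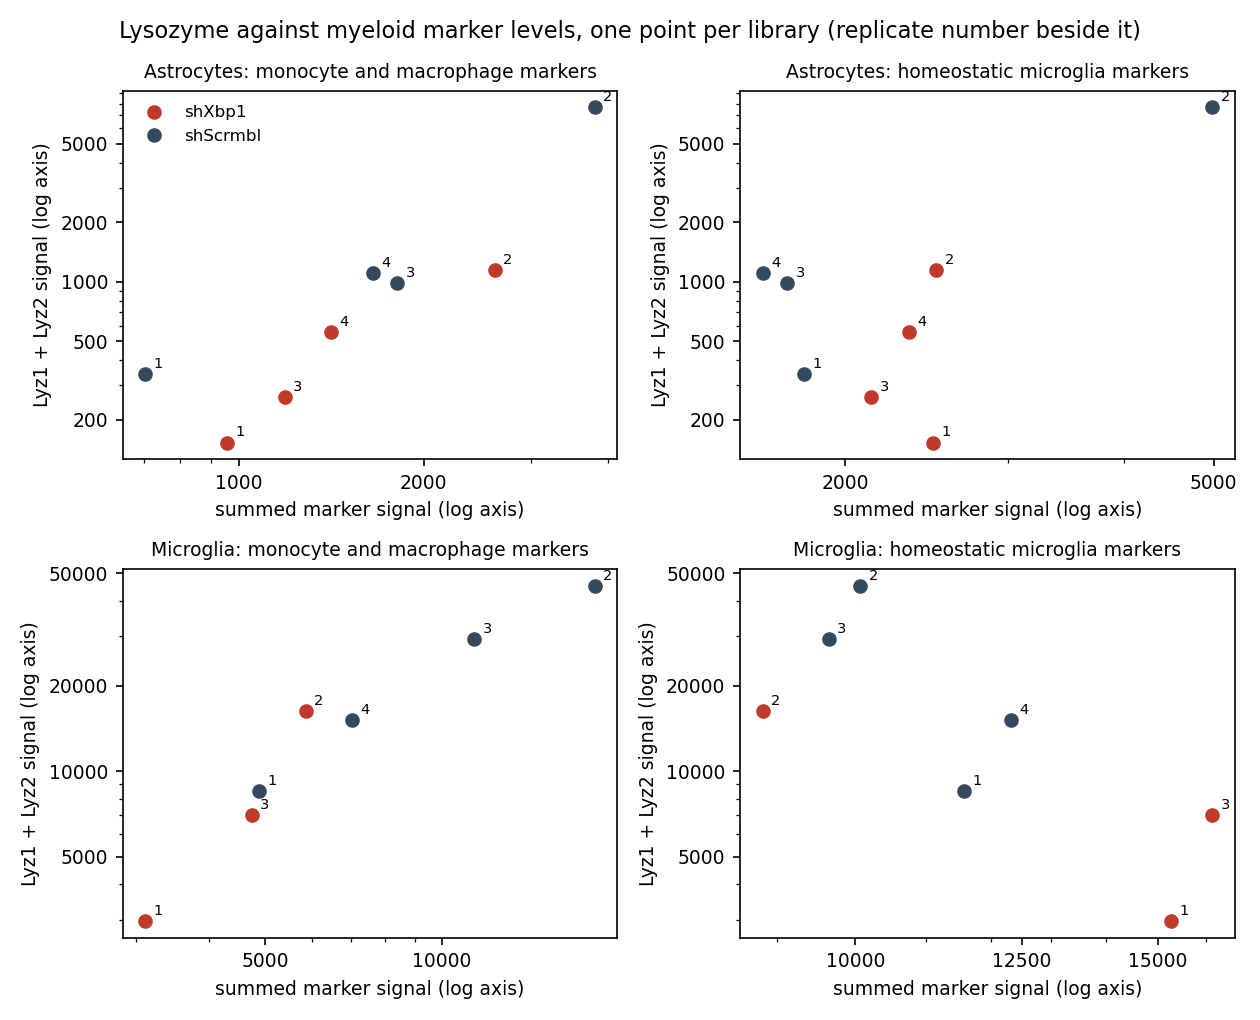
Summed Lyz1 and Lyz2 signal against the summed signal of monocyte and macrophage markers (left) and homeostatic microglia markers (right), in astrocyte (top) and microglia (bottom) libraries on log axes, one point per library. In microglia the marker sum and lysozyme were both lowest in shXbp1 replicate 1 (3116 for monocyte and macrophage markers) and both highest in shScrmbl replicate 2 (18272).

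Among 475 genes with a mean signal of at least 300 in microglia, those whose log2 signal followed summed lysozyme most closely over the 7 libraries were AW112010, Psap, Ctsh and Saa3, each with Pearson's r of 0.98, and Gpnmb with 0.96. Psap encodes prosaposin, the precursor of lysosomal lipid-binding saposins, and Ctsh a lysosomal cysteine protease. Saa3 encodes an acute-phase serum amyloid A protein and Gpnmb a membrane glycoprotein of activated macrophages. Saa3 averaged 472 ± 315 signal in shXbp1 and 1448 ± 714 signal in shScrmbl microglia, and Gpnmb 419 ± 479 and 863 ± 591 (SD, n = 3 and 4). Lyz1 and Lyz2 were alike at r = 0.99. After each virus group was centred on its own mean, the 5 closest were Saa3 (0.99), H2-K1 (0.98), Gpnmb (0.97), Lamp1 (0.97) and AW112010 (0.97). All these correlations share the libraries, their depth and the genes' selection, and are given as description.

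Of the other antimicrobial and peptidoglycan defence genes, 15 of 27 listed were measured in microglia, 13 of them lower and 2 higher with shXbp1, with a median log2 difference of -0.93, in a table where 65.5% of genes were lower. None was called by limma, which called 0 of 3066 genes (0%, with 166 at an unadjusted p under 0.05). edgeR's quasi-likelihood test on the counts called 12 genes (0.391%), of which 1 was in this list. That gene was Cybb, which encodes the core of the NADPH oxidase of phagocytes, at 222 ± 63.7 signal in shXbp1 and 819 ± 597 signal in shScrmbl microglia (edgeR log2 difference -1.95, adjusted p = 0.0164, limma adjusted p = 0.653). Mpeg1, which encodes the pore-forming protein perforin-2, averaged 1361 ± 591 signal with shXbp1 and 2019 ± 762 signal with shScrmbl (edgeR adjusted p = 0.973). Chi3l3, a chitinase-like protein of alternatively activated macrophages, averaged 102 ± 94.3 and 1150 ± 1561 (edgeR adjusted p = 0.930), and Cd14, the lipopolysaccharide co-receptor, 1452 ± 1009 and 1292 ± 705 (edgeR adjusted p = 0.996). Of the monocyte and macrophage markers, 26 of 28 were lower by limma with a median of -1.64, and edgeR called 4 of them lower, Cybb, Saa3, Pla2g7 and Hp. Under the alternative settings that median ran from -1.79 to -0.87. This list was chosen with earlier results of these data known, so its values and calls here are a description and no independent support. Pla2g7 encodes a phospholipase that breaks down platelet-activating factor, and Hp haptoglobin, which binds free haemoglobin. Of the homeostatic microglia markers 15 of 22 were higher by limma with a median of 0.20, and neither test called any. Without shScrmbl replicate 3 edgeR called 0 genes in the table, and without shScrmbl replicate 2 or shXbp1 replicate 1 it called 1, which was higher in shXbp1, so none of the 4 calls held when any 1 of those 3 libraries was left out. Without shXbp1 replicate 3 the calls of Cybb, Saa3 and Hp were lost as well (edgeR adjusted p = 0.225, 0.338 and 0.495), and without shXbp1 replicate 2 that of Pla2g7 (adjusted p = 0.103). Without shScrmbl replicate 3 the edgeR log2 differences were -1.94 for Cybb and -3.09 for Hp, beside -1.95 and -3.06 with all libraries.

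Of the 30 lysosome genes, all measured in microglia, 24 were lower and 6 higher with shXbp1, in a table where 65.5% of genes were lower. Their median log2 difference was -0.51, beside -0.39 over all genes, and neither test called any of the 30. With 1 library left out the list median ran from -0.69 to -0.08. Ctsd, an aspartic protease, averaged 14173 ± 3970 signal in shXbp1 and 22714 ± 2673 signal in shScrmbl microglia, and Ctss, a cysteine protease that acts in antigen presentation, 9618 ± 2167 and 15547 ± 3135 (limma adjusted p = 0.804 for both). Ctsb, another cysteine protease, averaged 4597 ± 2148 and 10735 ± 2930 signal (limma adjusted p = 0.653, edgeR 0.155).

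In monocytes, which played no part in the choice of the genes, lysozyme was lower in both shXbp1 libraries than in either shScrmbl library, but neither gene passed the test as the tables are scaled. Lyz1 signal was 3691 and 15912 in shXbp1 monocytes, against 20010 and 20497 in shScrmbl monocytes. Lyz2 signal was 3084 and 11661 in shXbp1 monocytes, against 16098 and 16463 in shScrmbl monocytes. The shScrmbl libraries lay close together, and the shXbp1 libraries differed 4.31-fold for Lyz1 and 3.78-fold for Lyz2, with the shallowest library, replicate 1, lowest. Both genes thus had groups that do not overlap, as did 25% of the 3775 genes of this table in the same direction, so that the lack of overlap does not set lysozyme apart. The limma log2 difference was -1.40 ± 0.62 (SE) for Lyz1, with a 95% interval from -2.68 to -0.13 and an adjusted p of 0.831, and -1.44 ± 0.60 for Lyz2, from -2.67 to -0.21 with an adjusted p of 0.662. limma called 101 genes in the table (2.68%) and neither lysozyme; edgeR called 1 (0.0265%) and DESeq2 0, with adjusted p of 0.988 and 0.963 for the genes in edgeR. The median over all genes was -0.42 (-0.17 with edgeR's scaling), and 32.2% and 31.9% of genes were lower still, against 20.6% and 18.5% by edgeR and 1.35% and 1.14% with a pseudocount of 50. With every column brought to the same total, both genes passed (limma log2 difference -1.31, adjusted p = 0.00584, for Lyz1 and -1.35, adjusted p = 0.00604, for Lyz2).

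The size of the monocyte differences depended on which shXbp1 library was used. Without shXbp1 replicate 1 they were -0.35 for Lyz1 (limma adjusted p = 0.111) and -0.48 for Lyz2 (adjusted p = 0.0359), and without shXbp1 replicate 2 they were -2.46 (adjusted p = 1.51e-06) and -2.40 (adjusted p = 2.24e-06), each with a single shXbp1 library assumed to vary like the shScrmbl ones, which lay close together. Monocyte and macrophage markers made up 0.830% and 1.46% of counts in shXbp1 monocytes, against 1.49% and 1.67% in shScrmbl monocytes, with replicate 1 of shXbp1 again lowest. Lysozyme counts per marker count were 1.03 and 1.59 with shXbp1, against 2.09 and 2.42 with shScrmbl. Lymphocyte markers made up 0.842% to 1.09% of counts with shXbp1 and 0.535% to 0.768% with shScrmbl. Markers of neutrophils, which also carry Lyz2, made up 0.0894% and 0.0618% of counts in shXbp1 monocytes, against 0.171% and 0.264% in shScrmbl monocytes. These shares did not overlap, and those of lymphocyte markers did not either, in the other direction. Among single genes in monocytes, 25% were lower with shXbp1 without overlap, so this does not set the neutrophil markers apart. Of 11 measured neutrophil markers 9 were lower, where 65.8% of all genes in monocytes were, with a median log2 difference of -3.39 (-1.60 by edgeR). Of these markers limma called 1, beside 2.68% of all genes. This was Mmp8, a collagenase of neutrophil granules, at 0 in both shXbp1 libraries and at 99.0 ± 1.66 signal in shScrmbl libraries (limma adjusted p = 0.0283, edgeR 0.922). Between 4 and 5 of the 11 markers were at 0 in shXbp1 libraries and none in shScrmbl libraries. The part of these lists in the lysozyme values was not tested.

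Other defence genes in monocytes were mostly lower too, in a table where 65.8% of genes were. Of 27 listed, 17 were measured, 14 lower and 3 higher with shXbp1, with a median log2 difference of -1.21, and limma called 1. This was Ctsg, a serine protease of neutrophil and monocyte granules, at 0 in both shXbp1 libraries and at 61.9 ± 28.3 signal in shScrmbl libraries (limma adjusted p = 0.00622, edgeR 0.922), and limma called 0 genes once either shScrmbl library was left out or the pseudocount was 10 or 50. Mpeg1 averaged 967 ± 438 signal with shXbp1 and 2179 ± 730 signal with shScrmbl (limma adjusted p = 0.887), and Cybb 455 ± 215 and 1302 ± 142 (limma adjusted p = 0.528). Slpi, a secreted protease inhibitor, ran the other way, at 2181 ± 1634 with shXbp1 and 724 ± 95.8 with shScrmbl (limma adjusted p = 0.887). Of 28 measured lysosome genes 27 were lower with a median of -0.57 and none was called, among them Ctss at 7363 ± 3621 and 12128 ± 967 signal and Ctsd at 7212 ± 1762 and 11306 ± 1859 (SD, n = 2 each).

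In astrocyte libraries, the other cell type that was not used for the choice, the mean of both genes was lower with shXbp1, and neither passed a test. Lyz1 signal was 68.2, 616, 125 and 305 in shXbp1 astrocytes, against 221, 4116, 506 and 689 in shScrmbl astrocytes. Lyz2 signal was 85.3, 529, 135 and 252 in shXbp1 astrocytes, against 120, 3542, 479 and 414 in shScrmbl astrocytes. The groups overlapped, 0.785% of genes being lower in shXbp1 without overlap, and shScrmbl replicate 2 stood far above all other libraries. Lyz1 averaged 279 ± 247 signal with shXbp1 and 1383 ± 1832 with shScrmbl, and Lyz2 251 ± 199 and 1139 ± 1610 (SD, n = 4 each). The lowest library, shXbp1 replicate 1, rested on 4 Lyz1 and 5 Lyz2 counts.

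The limma log2 difference in astrocytes was -1.90 ± 1.07 (SE) for Lyz1, with a 95% interval from -4.43 to 0.63, and -1.44 ± 1.09 for Lyz2, from -4.03 to 1.15, with an adjusted p of 0.824 for both. The median over all genes of that table was 0.42 (0.05 with edgeR's scaling), 31.8% of genes had a difference below 0, and 1.23% and 2.83% had one lower than Lyz1 and Lyz2 (0.157% and 0.189% by edgeR). limma called 0 of 6366 genes (0%, with 298 at an unadjusted p under 0.05), edgeR 1 (0.0157%) and DESeq2 0, and edgeR gave -2.29 for Lyz1 (adjusted p = 0.761) and -2.19 for Lyz2 (adjusted p = 0.782). Without shScrmbl replicate 2 the limma differences were -1.08 and -0.54, and those of edgeR -0.64 and -0.30. The share of counts in lysozyme averaged 0.0516% ± 0.0401 with shXbp1 and 0.215% ± 0.260 with shScrmbl (SD, n = 4 each), the shXbp1 mean was 0.0330% without shXbp1 replicate 2, and the shScrmbl mean 0.0866% without shScrmbl replicate 2.

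**Figure D3:**
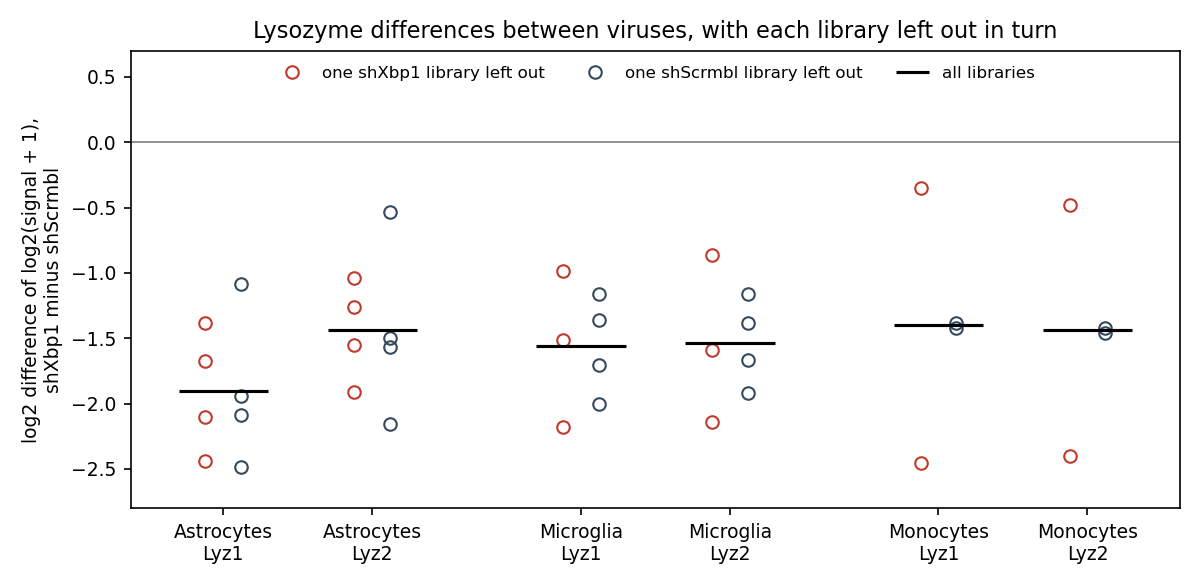
Difference in log2(signal + 1) of Lyz1 and Lyz2, shXbp1 minus shScrmbl, in each cell type with all libraries (bars) and with each library left out in turn (circles, red for an shXbp1 and blue for an shScrmbl library). All values lie below 0; in monocytes they run from -2.46 to -0.35 for Lyz1 depending on which shXbp1 library is left out.

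Across the 8 astrocyte libraries lysozyme followed the markers of monocytes and macrophages. That list and the test were chosen with earlier results of these data known, so the p-values are no independent support. On the log2 scale summed lysozyme and the sum of the 20 measured markers had Pearson's r = 0.895 (exact permutation p = 0.00285, adjusted over 2 relations 0.00570) and Spearman's rho = 0.905 (exact permutation p = 0.00456, adjusted 0.00913). Without the 2 libraries farthest from the median marker sum, shScrmbl replicates 1 and 2, r was 0.905 (exact permutation p = 0.00833), and without shScrmbl replicate 2 alone, an alternative chosen after seeing the data, it was 0.804 (exact permutation p = 0.0300). The marker sums were 955, 2613, 1187 and 1414 signal in shXbp1 astrocytes, against 702, 3808, 1811 and 1655 in shScrmbl astrocytes, so the groups overlapped. Lysozyme counts per marker count ran from 0.161 to 0.438 in shXbp1 and from 0.486 to 2.01 in shScrmbl astrocytes. Relative to these markers lysozyme was thus lower with shXbp1, a difference that was not tested. Of the defining monocyte markers Ly6c2, Ccr2 and Plac8 were not among the genes of the astrocyte table. The defence and lymphocyte lists were not tested against lysozyme. The 13 measured defence genes summed to 529, 1097, 541 and 631 with shXbp1, against 461, 2783, 959 and 772 with shScrmbl. The 5 lymphocyte markers summed to 34.1, 250, 93.7 and 159, against 140, 380, 107 and 414, on 2 to 90 counts. Both sums also tended to be high where lysozyme was high. The relation is thus not shown to be particular to monocytes and macrophages.

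The homeostatic microglia markers gave no relation that passed the test, and its sign changed with 1 library. With 20 measured markers r was 0.591 (exact permutation p = 0.141) and rho 0.238 (exact permutation p = 0.582), and without shScrmbl replicate 2 the r was -0.379 (exact permutation p = 0.388). Their sums were 2490, 2507, 2134 and 2344 signal in shXbp1 astrocytes, against 1805, 4985, 1731 and 1627 in shScrmbl astrocytes. In 7 of the 8 libraries, shScrmbl replicate 2 being the exception, lysozyme was thus below 1 count per homeostatic marker count, between 0.0616 and 0.678, while that library had 1.54. The difference between the 2 correlations was not tested.

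The genes most like lysozyme in the astrocyte table, among 387 with a mean signal of at least 300 over 8 libraries, were H2-Aa (r = 0.98), Ctsb (0.95), Ftl1 (0.95), Fcer1g (0.92) and B2m (0.92), where Lyz1 and Lyz2 had r = 0.98 with each other. H2-Aa encodes a chain of MHC class II, Ftl1 the ferritin light chain, Fcer1g the signalling chain of Fc receptors and B2m the light chain of MHC class I. H2-Aa averaged 232 ± 97.0 signal with shXbp1 and 624 ± 533 signal with shScrmbl (SD, n = 4 each; limma adjusted p = 0.824, edgeR 0.634), and Ftl1 4868 ± 1904 and 9257 ± 5240 (limma adjusted p = 0.824). Centred within each virus group, H2-Aa (0.98), Ctsb (0.98), Id2 (0.94), Ftl1 (0.93) and Ctsa (0.92) came first. H2-Aa, Ctsb and Ftl1 were thus among the 5 closest both ways.

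Of 4 lists in the astrocyte table, 3 had medians of opposite sign by limma and by edgeR. The median over all genes of that table was itself 0.42 by limma and 0.05 by edgeR, with 31.8% and 46.8% of genes below 0. All 4 lists had medians below that of all genes under both methods. Of 13 measured defence genes 7 were higher and 6 lower with a median of 0.06 by limma, but 12 of 13 were lower with a median of -1.09 by edgeR. The lysosome list was lower under both, with 21 of 30 lower and a median of -0.21 by limma and 29 of 30 lower and a median of -0.62 by edgeR. Monocyte and macrophage markers had medians of 0.03 and -0.94, and homeostatic microglia markers 0.27 and -0.48, by limma and edgeR. Neither test called any gene of these lists. Mpeg1 averaged 181 ± 34.2 signal in shXbp1 and 351 ± 323 signal in shScrmbl astrocytes, and Ctsb 730 ± 315 and 1503 ± 1659 (limma adjusted p = 0.824 and 0.859), the wide spread of shScrmbl resembling that of lysozyme.

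The ratio of Lyz1 to Lyz2 counts within a library, which scaling cannot change, varied far less than the level. Over all libraries 10034 Lyz1 and 8155 Lyz2 counts gave a pooled ratio of 1.23. Lyz1 exceeded Lyz2 in 16 of 19 libraries and was below it in 3, and the exact 95% counting interval of the ratio held the pooled ratio in all 19 libraries and excluded 1 in 6. Ratios were 0.800, 1.16, 0.923 and 1.21 in shXbp1 astrocytes, against 1.83, 1.16, 1.06 and 1.67 in shScrmbl astrocytes, on 9 to 1816 lysozyme counts. In microglia they were 1.29, 1.15 and 0.986 with shXbp1, against 1.02, 1.22, 1.27 and 1.13 with shScrmbl. In monocytes they were 1.20 and 1.36 with shXbp1, against 1.24 and 1.25 with shScrmbl. The ratio stayed between 0.800 and 1.83 while the share of counts varied 228-fold, and since reads that fit both copies could be assigned to either, the ratio describes the counting as well as the RNA.

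The mean log2 ratio in astrocytes was 0.01 ± 0.28 with shXbp1 and 0.48 ± 0.39 with shScrmbl (SD, n = 4 each), a difference of -0.46 that did not pass an exact two-sided permutation test (p = 0.171, adjusted over 2 relations 0.343, smallest possible p 0.0286). In monocytes it was 0.35 ± 0.13 with shXbp1 and 0.32 ± 0.0016 with shScrmbl, a difference of 0.04 (exact permutation p = 1, where 2 against 2 libraries cannot go below 0.333). In microglia, given without a test, it was 0.18 ± 0.20 with shXbp1 and 0.21 ± 0.14 with shScrmbl. The difference there was -0.03, smaller than the spread within either group.

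**Figure D4:**
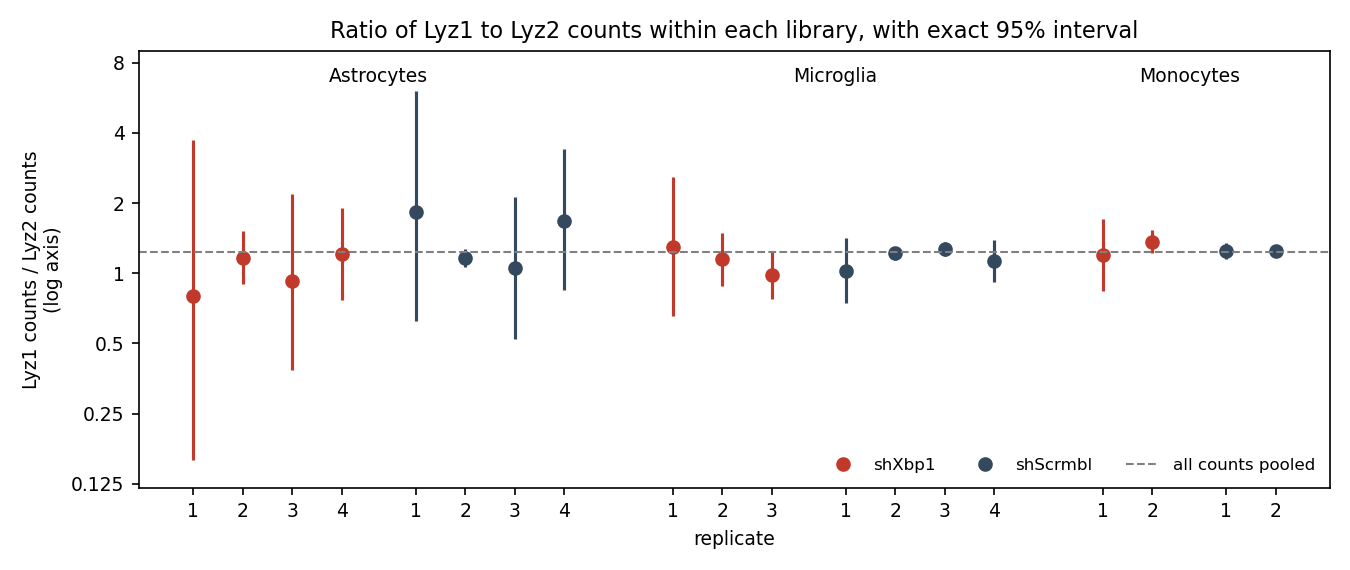
Ratio of Lyz1 to Lyz2 counts in each library with its exact 95% counting interval on a log axis, by cell type with shXbp1 left of shScrmbl; the dashed line is the pooled ratio of 1.23. All 19 intervals hold the pooled ratio, and they are widest in the astrocyte libraries with few lysozyme counts.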

How the data were processed

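For each cell type the authors deposited a table of signal values, normalized by them, with genes in rows and libraries in columns. Tools listed in the submitters' processing notes are limma 3.34.1 and BWA 0.7.10, and the build there is mm10, all without their roles; the scaling and counting are not given in the sources used here. The deposited signal values are whole counts times a step per library (100% of values above 0 whole within 0.01 of a count), and the recovered counts were used for shares, ratios and count tests.

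Each table was fitted alone, shXbp1 against shScrmbl, with limma 3.58.1 (trend, robust) on log2(signal + 1), keeping genes whose signal reached 1 in a number of libraries equal to the size of the smaller group, and Benjamini-Hochberg adjusted p under 0.05 over all genes of the table. edgeR 4.0.16 (quasi-likelihood) and DESeq2 1.42.0 on the recovered counts, pseudocounts of 10 and 50, other filters, equal column totals, a replicate block and leaving out each library were alternatives. Folds of low genes depend on the pseudocount. Correlations and ratios were tested by exact permutation. The analysis used R 4.3.3, Python 3.11.15 and Biopython 1.88 for sequence alignment, and the fits were tested on simulated data. Lyz1 and Lyz2, the gene lists and the tests were chosen with earlier results of these data known. Named genes were the lysozymes, Xbp1, the 5 genes most alike by Pearson's r, and up to 4 genes per list with the highest mean signal; Cybb in microglia and monocytes, Ctsg, Mmp8, Saa3, Pla2g7, Hp and Gfap were added after their values were seen. The p-values measure the spread between libraries of a cell type. One gene that the lists hold is not reported here.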

Additional observations from a re-analysis of the deposited data

Results flagged for a closer look

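Astrocyte shScrmbl replicate 2 lay farther from the other 3 shScrmbl libraries than Dixon's 95% limit for 4 samples allows in 4 of the 21 groups of values looked at, where chance gives about 1 in 20. Its Lyz1 signal was 4116 (others 221 to 689), its Lyz2 signal 3542 (others 120 to 479) and its lysozyme share of counts 0.601% (others 0.0337% to 0.122%). Its summed signal of homeostatic microglia markers was 4985 (others 1627 to 1805). It was also the deepest of the 19 libraries, with 302003 counts. The 4 values come from 1 library and are not independent of each other, and why it stands apart was not tested.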

How the results depend on the processing

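The lysozyme differences stayed negative in all 3 cell types under every alternative run, and in astrocytes neither gene passed in any. In monocytes, among the alternatives that kept all libraries, they passed only with equal column totals (limma -1.31 and -1.35 for Lyz1 and Lyz2, adjusted p = 0.00584 and 0.00604). Leaving out a monocyte library leaves a single one in its virus group, so only the sizes of those differences are given next. With 1 library left out they ran from -2.46 to -0.35 and from -2.40 to -0.48 by limma, and from -2.45 to -0.39 and from -2.39 to -0.53 by edgeR. The cause was not tested.

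Genes called in astrocytes numbered 0, but 1 by edgeR and 1 to 12 by edgeR without 1 library. In microglia they numbered 0, but 1 with a pseudocount of 50, 2 with equal column totals, 12 by edgeR, 0 to 3 without 1 library and 0 to 23 by edgeR without 1 library. In monocytes they numbered 101, but 0 with a pseudocount of 10 or 50 or a mean signal filter of 100, 1 by edgeR, 0 by DESeq2, 0 to 1163 without 1 library and 0 to 61 by edgeR without 1 library.

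The monocyte ratio difference ran from -0.056 (without shXbp1 replicate 2) to 0.13 (without shXbp1 replicate 1), and the monocyte shScrmbl share was 3.82% over the 2606 genes shared by all tables. The homeostatic marker relation turned to r = -0.179 without the 2 farthest libraries and -0.379 without shScrmbl replicate 2.

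Same-numbered libraries did not deviate together over genes with a mean signal of at least 100. Their correlations ran from -0.08 to 0.08 in astrocytes and from -0.03 to 0.05 in microglia. Lyz1 went otherwise, ranking astrocyte replicates 1, 3, 4 and 2 from lowest to highest under both viruses (for Lyz2 in shScrmbl, 1, 4, 3 and 2). In shXbp1 astrocytes that was also the order of depth, from 53228 to 221367 counts, but in shScrmbl astrocytes it was not. In astrocytes a replicate block lowered the SE from 1.07 to 0.36 for Lyz1 and from 1.09 to 0.39 for Lyz2. Whether equal numbers mark pairs is thus not settled. A replicate block called 0, 0 and 112 genes in astrocytes, microglia and monocytes, with adjusted p of 0.0579 for Lyz1 and 0.802 for Lyz2 in astrocytes. In monocytes the correlation was -0.19, and a block with the numbers crossed called 114. Limits come from depth: astrocyte library values rest on as few as 4 counts, and monocytes on 2 libraries per virus.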
